A study of Mus musculus with 9 samples.

Results

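The interferon response genes described here are 54 genes taken by name from the 54532 named genes of the deposited count table. They comprise the interferon receptor chains, IRF and STAT factors, sensors of foreign nucleic acid, antiviral effectors and genes of class I antigen presentation, and all 54 were found. They were measured by RNA-seq in 9 libraries of cultured mouse stem cells, 3 from each of 3 cell types, all of the strain Sv129 x GOF/GFP F1 and all grown on fibronectin in a basic medium with N2 and B27 to which Activin A was added. AFSC are blastocyst-derived cells that the labels liken to epiblast stem cells (EpiSCs), kept in Activin A with bFGF and collected at passages 15 to 20. ALSC were made from AFSC by over 5 passages in a medium read here as Activin A with LIF, collected at passages 20 to 25, and carry no likeness to a named cell type in the labels. ABSC were made from AFSC by over 5 passages in Activin A with BMP4, collected at passages 25 to 30, and are likened to trophoblast stem cells (TSCs). The reading of the ALSC medium is an inference, since the protocol names 2 media with the letters AB, one with LIF and one with BMP4, and gives none under AL. The labels name no treatment with interferon or virus. Passage differs with cell type, and the protocol names a Micro RNA kit for ALSC beside the Mini kit for all cells, so passage, kit and cell type cannot be told apart. The labels do not say whether the 3 libraries of a group came from separate cultures, so the p-values below measure only the spread between these libraries.

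Interferons are secreted proteins that bind paired receptor chains (IFNAR1 with IFNAR2 for type I, IFNGR1 with IFNGR2 for type II). The receptors act through JAK kinases on transcription factors. A complex that holds STAT2 and IRF9 binds the interferon-stimulated response element (ISRE), and the type II response acts through the gamma-activated site (GAS), in the promoters of induced genes. Pluripotent mouse cells are known for a weak response to interferon and for making little interferon themselves, while some antiviral genes are kept on without it.

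The promoters of the genes show how widely these sites are shared. RefSeq promoter sequences (GRCm38.p6, 250 bases before to 50 bases after the transcription start) were matched by symbol for 43 of the 54 genes. The ISRE core was searched as GAAANNGAAA and the GAS core as TTCNNNGAA, on both strands. The ISRE core was in 16 of the 53 promoters of these genes (30.2%), against 3.44% of all 32851 promoters in the table. The GAS core was in 15 of the 53 (28.3%), against 8.3% of all. Among genes with a promoter in the table, 5 of the 14 that rose in ALSC against AFSC held an ISRE core (35.7%). So did 9 of the 25 without a call in any comparison (36.0%), but these include genes too low to be tested. Ifit1, Ifit3, Irf2 and Rsad2, which hold the core, were not tested, so the shares do not compare tested genes alone. Windows around the cores are printed 5′ to 3′ in the direction of the gene with the cores in capitals, and a core on the other strand therefore reads with T for A and C for G in reverse order. The reference is not the strain of these cells, and a match is a description of letters only. The first 5 belong to genes whose levels differed between the cell types, and the next 3 to genes near the detection limit in all of them.
Isg15, chr4:156200865-156200906, minus strand: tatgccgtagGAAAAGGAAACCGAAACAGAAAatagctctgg
Bst2, chr8:71537577-71537612, minus strand: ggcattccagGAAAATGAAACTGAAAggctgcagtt
Oas1a, chr5:120907520-120907555, minus strand: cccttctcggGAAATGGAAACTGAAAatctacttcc
Apobec3, chr15:79892258-79892287, plus strand: catcagttagTTTCCCTTTCtctttgcgat
B2m, chr2:122147538-122147567, plus strand: ataagaacatGAAACTGAAAatgggaaagt
Ifit1, chr19:34640775-34640823, plus strand: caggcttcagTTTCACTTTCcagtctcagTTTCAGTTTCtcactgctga
Ifit3, chr19:34583363-34583426, plus strand: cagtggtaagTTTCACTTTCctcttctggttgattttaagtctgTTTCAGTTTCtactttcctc
Rsad2, chr12:26456553-26456582, minus strand: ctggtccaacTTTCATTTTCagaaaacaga
A GAS core was held by 4 of the 14 genes that rose in ALSC against AFSC (28.6%). It was also held by 9 of the 25 without a call in any comparison (36.0%), which include untested genes. GAS cores are shown for 2 of the genes that rose.
Irf1, chr11:53769914-53769942, plus strand: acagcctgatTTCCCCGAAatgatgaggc
Psmb8, chr17:34198088-34198116, plus strand: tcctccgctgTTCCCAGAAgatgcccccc

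Isg15 holds 3 overlapping ISRE cores in 1 run, while Ifit1 and Ifit3 hold 2 separate ones each. Ifit1 and Ifit3 stayed under 1 CPM (counts scaled to a common library size) in every library, as did Rsad2.

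Counts in named genes ran from 18978651 to 21578737 per library. Levels within a gene are given as CPM, scaled with TMM factors, and levels between genes as TPM, which also divides by the gene length in the count table. That length covers more than 1 transcript for some genes, so TPM is approximate. Of the 54 genes, 44 passed the filter on low counts and were tested, and 10 did not (Rsad2, Ifit1, Ifit3, Usp18, Irf2, Oas2, Oasl1, Mx1, Ifi27 and Trim25). Epiblast markers were all above 1 CPM in each group, and summed to 3740 to 3810 CPM in AFSC, 3080 to 3430 in ALSC and 3140 to 3460 in ABSC. Of the 9 trophoblast markers, Elf5 and Gata3 were under 1 CPM in every group. Cdx2 was also under it in AFSC and ALSC, and Hand1 in AFSC. The 9 summed to 352 to 423 CPM in AFSC, 288 to 404 in ALSC and 603 to 733 in ABSC. Markers of leukocytes and macrophages, cells that express interferon response genes themselves, summed to 9.62 to 10.5 CPM in AFSC, 7.25 to 9.96 in ALSC and 8.04 to 13.1 in ABSC, and 8, 9 and 8 of the 10 markers were under 1 CPM. Fibroblast markers summed to 17.5 to 19.6, 11.9 to 25.7 and 10.1 to 18 CPM, and endothelial markers to 21.9 to 24.6, 22.3 to 25.2 and 21 to 23.1 CPM. In bulk RNA, fewer cells of a type and less RNA per cell cannot be told apart.

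Per length, levels in the set ranged from plainly on to near 0. In their highest group mean, 24 genes reached 10 TPM or more, 18 lay between 1 and 10 TPM, and 12 stayed under 1 TPM. The membrane effectors led, from 30.8 to 396 TPM in AFSC, 134 to 388 in ALSC and 94.1 to 434 in ABSC. Ifitm2 was the highest of all in AFSC, at 396 ± 29 TPM (SD, n = 3). Class I presentation genes followed, with medians of 15.65, 21.8 and 18.05 TPM in AFSC, ALSC and ABSC. At the other end were many of the genes best known as interferon-induced: Ifit1, Ifit3, Rsad2, Mx1, Mx2, Oas2, Oas3, Oasl1, Usp18, Irf2, Ifi27 and Trim25 were under 1 TPM in every group mean. Ifit1, whose protein binds foreign RNA, had 1, 8 and 0 counts summed over the 3 AFSC, ALSC and ABSC libraries. Its levels were 0, 0.0472 and 0 CPM in AFSC, 0.138, 0.156 and 0.102 in ALSC, and 0, 0 and 0 in ABSC. A count of 0 over the 3 ABSC libraries allows up to about 0.0506 CPM (3 counts over the group, counting error only).

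**Figure D1:**
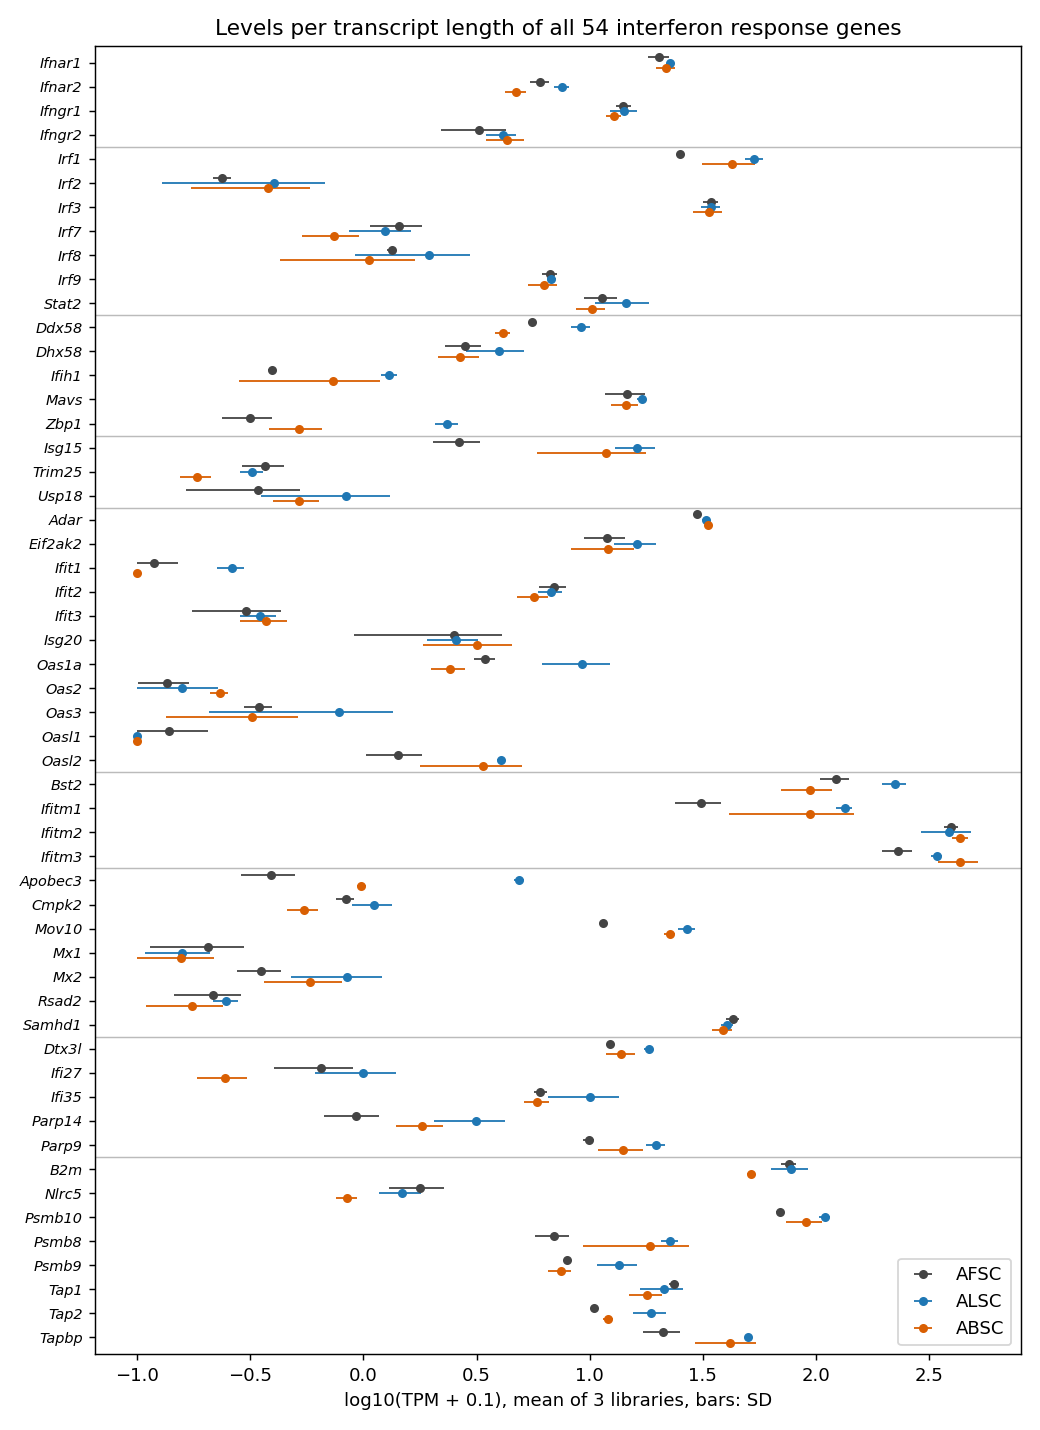
Levels per transcript length of all 54 genes, as log10(TPM + 0.1), grouped by role with grey lines between roles; points are means of 3 libraries and bars are SD. The membrane effectors lie at the right, and 12 genes stay under 1 TPM (left of about 0) in every group.

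In ALSC against AFSC, 33 of the 44 genes tested had a log2 fold change above 0. A change was called where edgeR's quasi-likelihood test gave an adjusted p (Benjamini-Hochberg, over all 16178 genes tested) under 0.05. By that test 18 of the 44 genes rose in ALSC against AFSC (40.9%) and 0 fell, where 3.54% of all genes tested rose and 3.5% fell. In ABSC against AFSC, 8 rose (18.2%) and 2 fell (4.55%), where 3.98% of all genes rose and 4% fell, so the share that fell was near that of all genes. In ABSC against ALSC, 0 rose and 10 fell (22.7%), where 5.41% of all genes rose and 5.56% fell. The median log2 fold changes of the 44 genes were 0.54, 0.07 and -0.42 in the same order, and those of all genes tested were 0.003, -0.004 and -0.011. These 3 comparisons share libraries, and the genes that passed the filter are not the whole set, so over all 54 the counts are 18, 10 and 10. An F test for any difference among the 3 cell types called 22 genes, where 14.8% of all genes were called.

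Replicate numbers 1 to 3 recur in the labels of every group, and a fit with the number as a block (the replicate block) moved 2 of these counts by over 1.5 times. With the block, ABSC against AFSC gave 10 higher and 6 lower (all genes 9.58% and 9.78%), with 7 of the 10 calls shared between the fits. ABSC against ALSC gave 1 higher and 18 lower (all genes 14.2% and 14.3%), with all 10 calls shared. ALSC against AFSC gave 24 higher and 0 lower (all genes 11.1% and 11.1%), with all 18 calls shared. The test for any difference then called 31 genes, where 37% of all genes were called: 10 genes gained a call and Ifitm1 lost it. The count for ABSC against AFSC moved with single libraries: it was 10 with all libraries, 17 without ABSC 1, 4 without ABSC 2, 4 without ABSC 3, 6 without AFSC 1, 5 without AFSC 2 and 3 without AFSC 3. All genes called moved the same way, from 1291 to 1680, 685, 746, 980, 686 and 667 in the same order. For ALSC against AFSC the 18 calls fell to 9 without AFSC 2 and 8 without AFSC 3 (all genes from 1139 to 349 and 345), and for ABSC against ALSC the 10 calls fell to 6 without ABSC 3 (all genes from 1775 to 958). The test for any difference called 14 without AFSC 2 and 14 without AFSC 3 (all genes from 2395 to 1433 and 1431). Groups did not overlap for 23 of the 44 genes tested in ALSC against AFSC (52.3%, against 28.5% of all genes tested), 18 in ABSC against AFSC (40.9%, against 27.4%) and 16 in ABSC against ALSC (36.4%, against 28.9%).

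**Figure D2:**
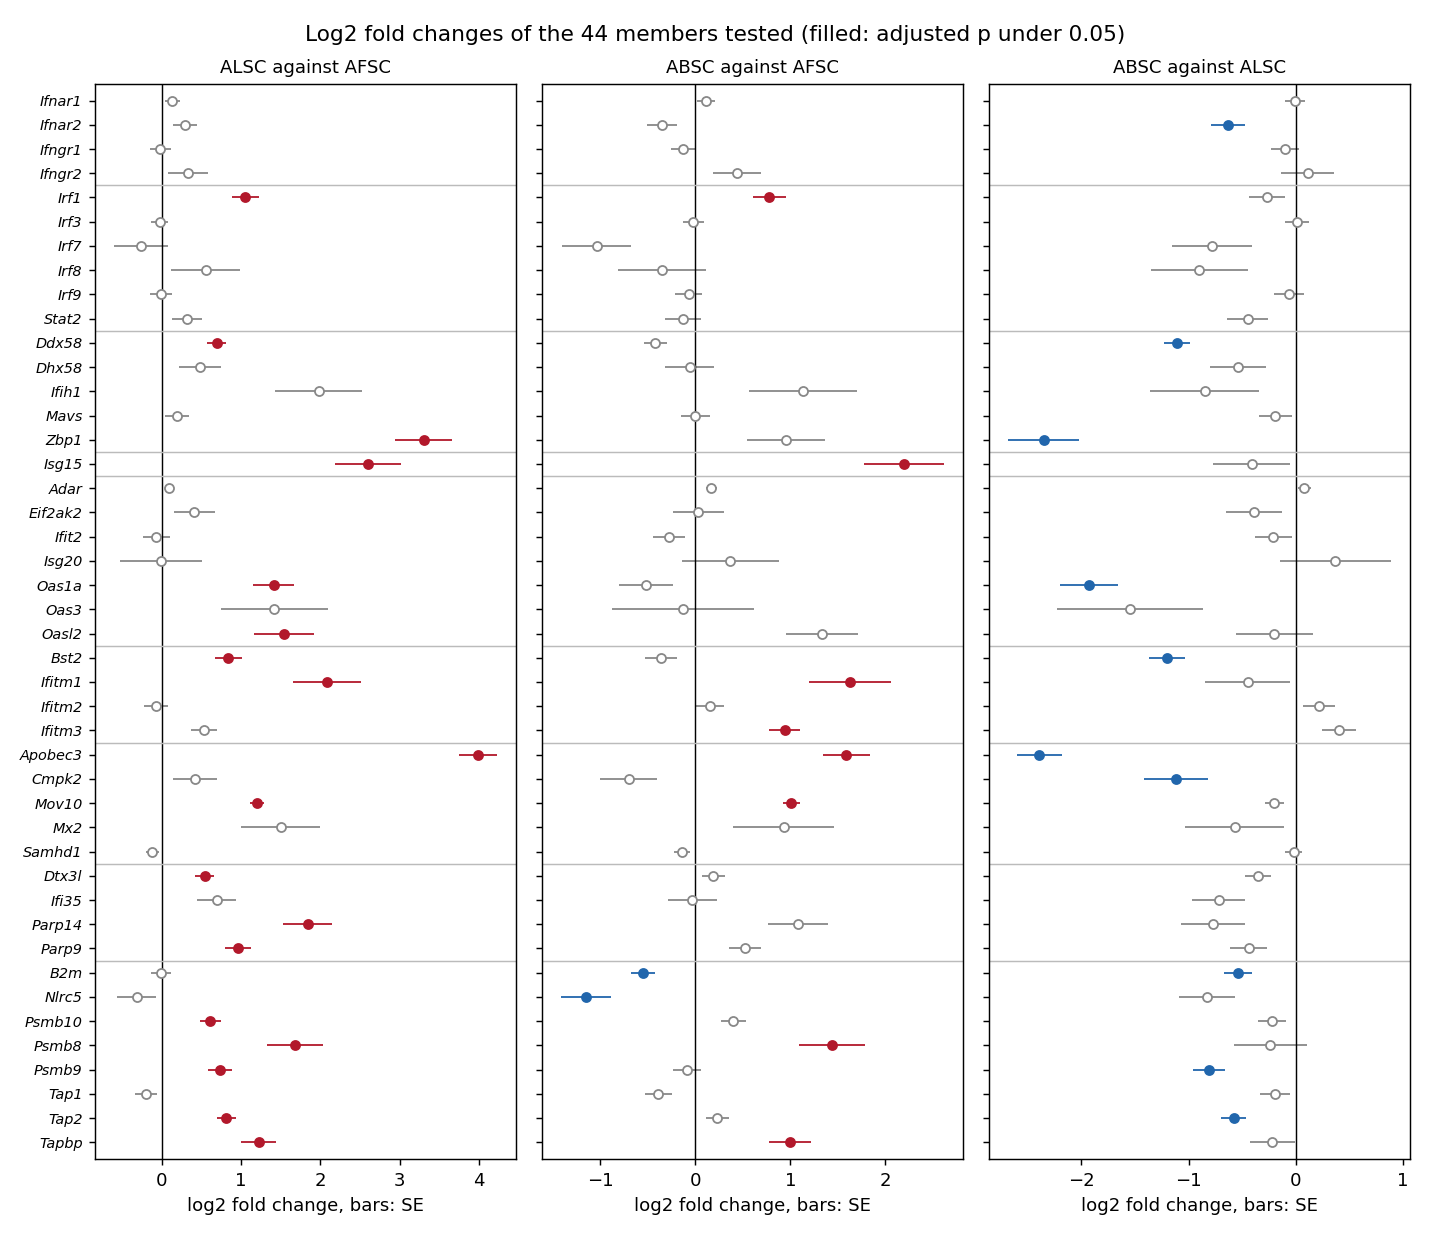
Log2 fold changes of the 44 genes tested in the 3 comparisons, in the order of their roles, with bars for the SE; filled red points rose, filled blue points fell and open points did not pass the test. In ALSC against AFSC 18 points are filled, all to the right of 0, and in ABSC against ALSC 10 are filled, all to the left.

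By pattern, 23 of the 54 genes, 44 of which were tested, passed in at least 1 of the 3 comparisons. The share of all genes that did so was not counted. The F test for any difference called 22 of the 44 genes and 14.8% of all genes tested. Apobec3 alone passed in all 3. Zbp1, Bst2, Ddx58, Oas1a, Tap2 and Psmb9 were higher in ALSC than in both other cell types. Isg15, Irf1, Ifitm1, Mov10, Tapbp and Psmb8 were higher in both ALSC and ABSC than in AFSC, with no call between ALSC and ABSC. Oasl2, Parp9, Parp14, Dtx3l and Psmb10 rose in ALSC against AFSC and passed in no other comparison. Ifitm3 rose in ABSC against AFSC, Nlrc5 fell there, B2m was lower in ABSC than in both other cell types, and Cmpk2 and Ifnar2 were lower in ABSC than in ALSC.

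The interferon genes themselves were almost without reads. Of 12 interferon genes looked for (Ifnb1, Ifna1, Ifna2, Ifna4, Ifna5, Ifnab, Ifnz, Ifne, Ifnk, Ifng, Ifnl2 and Ifnl3), 7 had 0 counts in all 9 libraries, and all 12 together had 13 counts in AFSC, 10 in ALSC and 8 in ABSC. The highest level of any of them in a library was 0.261 CPM, and none passed the filter. A count of 0 in a library allows up to about 0.138 to 0.157 CPM (3 counts in the library, counting error only).

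All 4 receptor chains had reads in every library. Ifnar1, a type I receptor chain, stood at 41.9, 37.2 and 34.1 CPM in AFSC, 41.8, 40.3 and 41.7 in ALSC, and 44.3, 39.7 and 38.5 in ABSC, and the groups overlapped. Its 95% intervals of the log2 fold change ran from -0.1 to 0.36 in ALSC against AFSC and from -0.11 to 0.34 in ABSC against AFSC. Ifnar2, the partner chain, stood at 6.33, 5.57 and 6.85 CPM in AFSC, 8.03, 7.04 and 7.79 in ALSC, and 4.86, 5.48 and 4.4 in ABSC, with every ABSC library below every AFSC and ALSC library. It fell in ABSC against ALSC, with a log2 fold change of -0.63 ± 0.16 (SE, adjusted p = 0.0282), but the call was lost without ABSC 2, ABSC 3, ALSC 1, ALSC 2 or ALSC 3 (adjusted p = 0.0542 to 0.114), and also with no filter on low counts or with the libraries of these 2 groups only. The type II chains passed in no comparison, with or without the block. Without the libraries numbered 1, Ifngr2 was called higher in ALSC and in ABSC than in AFSC (adjusted p = 0.0362 and 0.0309). Ifnar1 was then called higher in ALSC than in AFSC (adjusted p = 0.0397). In that fit 12% of all genes tested rose in ALSC and 14.5% in ABSC, each against AFSC. Ifngr1, the chain that binds interferon gamma, stood at 13.4, 12.7 and 11.5 CPM in AFSC, 13.9, 10.9 and 12.2 in ALSC, and 12, 11.8 and 10.7 in ABSC. Ifngr2, its partner, stood at 5.1, 3.3 and 2.77 CPM in AFSC, 4.91, 3.86 and 5.24 in ALSC, and 6.03, 4.54 and 4.55 in ABSC. Both gamma chains thus overlapped between groups. The 95% intervals of Ifngr2 ran from -0.29 to 0.95 in ALSC and from -0.17 to 1.06 in ABSC, each against AFSC.

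Among the transcription factors, Irf1 was the one that passed. Irf1, an activator of class I and other interferon response genes, stood at 31, 32.1 and 31.2 CPM in AFSC, 69.8, 60.2 and 65.6 in ALSC, and 36.7, 61.7 and 63.7 in ABSC. Every ALSC and ABSC library was above every AFSC library, but ABSC 1 lay far below ABSC 2 and 3. Irf1 rose in ALSC with a log2 fold change of 1.05 ± 0.17 (SE, adjusted p = 0.00754), a call that held in every leave-one-out fit. In ABSC the rise had a log2 fold change of 0.78 ± 0.17 (SE, adjusted p = 0.0224). The ABSC call was not kept with the replicate block (adjusted p = 0.0592), with no filter on low counts or with the libraries of these 2 groups only, and it was lost without ABSC 2, ABSC 3, AFSC 1, AFSC 2 or AFSC 3 (adjusted p = 0.0676 to 0.0936). Irf9, the DNA-binding part of the complex with STAT2, stood at 10.3, 11.9 and 11.2 CPM in AFSC, 10.3, 11.6 and 11.3 in ALSC, and 8.73, 11 and 12.2 in ABSC, and its groups overlapped. Stat2 stood at 24.9, 19.9 and 17.9 CPM in AFSC, 33.5, 23.5 and 21.2 in ALSC, and 21.7, 17 and 18.5 in ABSC. Its groups overlapped too, and its log2 fold changes of 0.32 ± 0.19 (SE, adjusted p = 0.372) in ALSC against AFSC and -0.45 ± 0.19 (SE, adjusted p = 0.161) in ABSC against ALSC did not pass without the replicate block and passed with it (adjusted p = 0.0288 and 0.00328). Irf7, the factor that amplifies interferon production, stood at 2.11, 1.42 and 1.27 CPM in AFSC, 1.47, 0.834 and 1.68 in ALSC, and 1.03, 0.575 and 0.707 in ABSC, with all ABSC libraries below all AFSC libraries. Its change in ABSC against AFSC, a log2 fold change of -1.04 ± 0.36 (SE, adjusted p = 0.127), did not pass without the block and passed with it (adjusted p = 0.0287). Irf7 overlaps Phrf1, which was far higher (154 to 171 CPM in the group means) and passed in no comparison, and the libraries do not keep the strand. Irf3, the constitutive factor downstream of the sensors, had group means of 36.3 to 37.2 CPM. Irf8 did not pass without the block and was lower in ABSC than in ALSC with it (log2 fold change -0.91, adjusted p = 0.0226). Without the libraries numbered 1 it was called lower in ABSC than in AFSC and than in ALSC (adjusted p = 0.00747 and 0.00556). In that fit 13.9% and 15.4% of all genes tested fell.

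Of the nucleic acid sensors, Zbp1 and Ddx58 rose in ALSC. Zbp1, a sensor of left-handed nucleic acid, stood at 0.154, 0.236 and 0.328 CPM in AFSC, 2.52, 2.66 and 2.14 in ALSC, and 0.294, 0.522 and 0.606 in ABSC. Every ALSC library was above 2 CPM and every other library under 1 CPM. Zbp1 rose in ALSC with a log2 fold change of 3.3 ± 0.36 (SE, adjusted p = 0.000849), a fold of 9.88, and was lower in ABSC than in ALSC with a log2 fold change of -2.35 ± 0.33 (SE, adjusted p = 0.00165). Both calls held in every leave-one-out fit. Ddx58 (the gene of RIG-I, a cytoplasmic sensor of viral RNA) stood at 11.9, 12.3 and 12.2 CPM in AFSC, 17.1, 21 and 20.8 in ALSC, and 8.24, 9.98 and 9.1 in ABSC, and no group overlapped another. It rose in ALSC with a log2 fold change of 0.69 ± 0.12 (SE, adjusted p = 0.00968), where the call was lost without AFSC 2 or AFSC 3 (adjusted p = 0.0543 to 0.0544), and was lower in ABSC than in ALSC with a log2 fold change of -1.11 ± 0.12 (SE, adjusted p = 0.000472), a call kept in every leave-one-out fit. Its lower level in ABSC than in AFSC, a log2 fold change of -0.42 ± 0.12 (SE, adjusted p = 0.0747), did not pass without the block and passed with it (adjusted p = 0.0112). Ifih1 (the gene of MDA5, a sensor of long double-stranded RNA) stood at 0.721, 0.755 and 0.798 CPM in AFSC, 2.66, 3.08 and 3.31 in ALSC, and 0.294, 2.25 and 2.48 in ABSC. All ALSC libraries were above all AFSC libraries, while ABSC was split, with ABSC 1 under AFSC and ABSC 2 and 3 above it. The ALSC difference, a log2 fold change of 1.98 ± 0.55 (SE, adjusted p = 0.0597), passed with the block (adjusted p = 0.00675). Without the libraries numbered 1, Ifih1 was called higher in ALSC and in ABSC than in AFSC (adjusted p = 5.68e-06 and 0.000159). Dhx58, which encodes the related helicase LGP2, had group means of 2.69 to 3.89 CPM and passed in none. Mavs, the adaptor that RIG-I and MDA5 use, stood at 18.9, 13 and 14 CPM in AFSC, 18, 16.8 and 17.4 in ALSC, and 17.4, 14.2 and 14.3 in ABSC. It passed in none either, with or without the block. Without the libraries numbered 1 it was called higher in ALSC than in AFSC and lower in ABSC than in ALSC (adjusted p = 0.0137 and 0.0479).

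Isg15 encodes a ubiquitin-like protein joined to other proteins. Of the 3 genes of the set grouped here under its conjugation (Isg15, Usp18 and Trim25), it was the only 1 tested. It stood at 0.463, 0.755 and 0.61 CPM in AFSC, 4.54, 3.34 and 3.36 in ALSC, and 1.32, 2.92 and 4.24 in ABSC. All ALSC and ABSC libraries were above all AFSC libraries. Isg15 rose in ALSC with a log2 fold change of 2.6 ± 0.42 (SE, adjusted p = 0.00616), a fold of 6.08, and the call was kept in every leave-one-out fit. In ABSC it rose with a log2 fold change of 2.2 ± 0.42 (SE, adjusted p = 0.0105), a fold of 4.59, and the call was lost without AFSC 3 (adjusted p = 0.052). Usp18, its protease and a brake on receptor signalling, reached at most 1.01 CPM in a library, and Trim25, a ligase for ISG15, at most 0.618 CPM.

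Among effectors that bind or degrade RNA, Oas1a and Oasl2 rose in ALSC. Oas1a, which makes the activator of RNase L, stood at 2.21, 1.98 and 1.78 CPM in AFSC, 7.16, 4.8 and 3.92 in ALSC, and 1.08, 1.62 and 1.47 in ABSC. No group overlapped another, with ALSC the highest and ABSC the lowest. Oas1a rose in ALSC with a log2 fold change of 1.41 ± 0.26 (SE, adjusted p = 0.0127), where the call was lost without AFSC 2 or AFSC 3 (adjusted p = 0.0692 to 0.0734), and was lower in ABSC than in ALSC with a log2 fold change of -1.93 ± 0.27 (SE, adjusted p = 0.00186), a call kept in every leave-one-out fit. Near-identical Oas1 copies could share its reads. Oasl2, an Oas-like gene, stood at 1.75, 3.02 and 3.19 CPM in AFSC, 7.43, 8.08 and 7.68 in ALSC, and 2.99, 9.66 and 7.53 in ABSC. ALSC was above AFSC in every library, and ABSC 1 lay within AFSC. Oasl2 rose in ALSC with a log2 fold change of 1.54 ± 0.38 (SE, adjusted p = 0.0388). That call was lost with no filter on low counts, and it was lost without ABSC 3, AFSC 1, AFSC 2, AFSC 3, ALSC 1, ALSC 2 or ALSC 3 (adjusted p = 0.0608 to 0.116). Its ABSC difference, a log2 fold change of 1.33 ± 0.38 (SE, adjusted p = 0.0631), did not pass without the block and passed with it (adjusted p = 0.00447). Eif2ak2 (the gene of PKR, a kinase that halts translation), Adar (an RNA editing enzyme), Ifit2 and Isg20 passed in no comparison in the fit without the block. Adar had the highest group means of these, at 76.5 to 86.1 CPM. With the block, Adar passed in ABSC against AFSC (log2 fold change 0.17, adjusted p = 0.0318). Eif2ak2 then passed in ALSC against AFSC and ABSC against ALSC (adjusted p = 0.0121 and 0.0105), and Oas3 in ABSC against ALSC (adjusted p = 0.0311).

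The membrane effectors, which hold virus particles at the cell surface or block their fusion, included Ifitm2 and Ifitm3, whose mean levels per length (TPM) were the highest of the set in each group. Bst2 (tetherin) stood at 40.8, 32 and 31.4 CPM in AFSC, 69.6, 59 and 57.4 in ALSC, and 34.2, 25.1 and 21.8 in ABSC. ALSC was above both other groups in every library. Bst2 rose in ALSC with a log2 fold change of 0.84 ± 0.17 (SE, adjusted p = 0.016), where the call was lost without AFSC 2 or AFSC 3 (adjusted p = 0.0825 to 0.0848), and was lower in ABSC than in ALSC with a log2 fold change of -1.2 ± 0.17 (SE, adjusted p = 0.00174), a call kept in every leave-one-out fit. With the block it was also lower in ABSC than in AFSC (log2 fold change -0.37, adjusted p = 0.00312). Ifitm1 stood at 7.93, 11.3 and 12.8 CPM in AFSC, 45.7, 41.1 and 48.5 in ALSC, and 11.3, 45.8 and 42.3 in ABSC. ABSC 1 lay inside the AFSC range, while ABSC 2 and 3 lay inside that of ALSC. Ifitm1 rose in ALSC with a log2 fold change of 2.08 ± 0.43 (SE, adjusted p = 0.0204), a call lost with no filter on low counts, and it was lost without AFSC 1, AFSC 2, AFSC 3 or ALSC 3 (adjusted p = 0.0633 to 0.0872). In ABSC it had a log2 fold change of 1.63 ± 0.43 (SE, adjusted p = 0.0466). That call had overlapping groups, was not kept with the block (adjusted p = 0.117), with no filter on low counts or with the libraries of these 2 groups only, and the call was lost without ABSC 2, ABSC 3, AFSC 1, AFSC 2, AFSC 3, ALSC 2 or ALSC 3 (adjusted p = 0.073 to 0.169). Ifitm3 stood at 40.8, 52.1 and 54.5 CPM in AFSC, 65.3, 75.3 and 73.1 in ALSC, and 70.3, 108 and 104 in ABSC. AFSC was lowest in every library, and ABSC 2 and 3 were the highest. It rose in ABSC with a log2 fold change of 0.94 ± 0.16 (SE, adjusted p = 0.0063), a call kept in every leave-one-out fit. The ALSC difference, a log2 fold change of 0.53 ± 0.16 (SE, adjusted p = 0.0805), and that of ABSC against ALSC, a log2 fold change of 0.4 ± 0.16 (SE, adjusted p = 0.145), did not pass without the block and passed with it (adjusted p = 0.000169 and 0.00146). Ifitm2 stood at 87.6, 74.8 and 83.2 CPM in AFSC, 93.1, 83.3 and 58.1 in ALSC, and 86.5, 100 and 85.4 in ABSC, overlapped in all groups and passed in no comparison. The Ifitm genes resemble each other, and reads could be split between them.

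Apobec3 and Mov10, both restrictors of retroelements, had the smallest adjusted p-values of the set in both comparisons with AFSC. Apobec3, a cytidine deaminase, stood at 0.978, 0.519 and 1.13 CPM in AFSC, 13.4, 14.8 and 13.6 in ALSC, and 2.45, 2.82 and 2.68 in ABSC. The groups stood wholly apart in the order AFSC, ABSC, ALSC. Apobec3 rose in ALSC with a log2 fold change of 3.99 ± 0.24 (SE, adjusted p = 5.27e-05), a fold of 15.9. It rose in ABSC with a log2 fold change of 1.59 ± 0.25 (SE, adjusted p = 0.0034), a fold of 3.02, and was lower in ABSC than in ALSC with a log2 fold change of -2.39 ± 0.21 (SE, adjusted p = 0.000105). Every one of these calls held in every leave-one-out fit. Apobec3 overlaps Cbx7 on the other strand, a gene with group means of 106, 101 and 112 CPM in AFSC, ALSC and ABSC that passed in no comparison. Mov10, an RNA helicase, stood at 20.4, 20.1 and 19.5 CPM in AFSC, 49.7, 45.2 and 43.5 in ALSC, and 36.7, 42.5 and 41.5 in ABSC. It rose in ALSC with a log2 fold change of 1.2 ± 0.089 (SE, adjusted p = 9.18e-05) and in ABSC with a log2 fold change of 1.01 ± 0.089 (SE, adjusted p = 0.000122), both calls kept in every leave-one-out fit. Cmpk2, a nucleotide kinase induced by interferon, stood at 0.875, 0.944 and 1.08 CPM in AFSC, 1.51, 0.991 and 1.37 in ALSC, and 0.54, 0.731 and 0.505 in ABSC, with all ABSC libraries below the others. Its fall in ABSC against ALSC, a log2 fold change of -1.12 ± 0.3 (SE, adjusted p = 0.0372), was also lost with no filter on low counts, with DESeq2, with the libraries of these 2 groups only and without the libraries numbered 1, and the call was lost without ABSC 1, ABSC 2, ABSC 3, AFSC 1, AFSC 2, AFSC 3, ALSC 1 or ALSC 3 (adjusted p = 0.052 to 0.135). Samhd1, which removes nucleotides that reverse transcription needs, had group means of 113 to 124 CPM and passed in none. Mx2 did not pass without the block and passed with it, in ALSC against AFSC (adjusted p = 0.0493).

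Parp9 and Dtx3l, whose proteins form a complex, and Parp14 rose in ALSC. Parp14, an ADP-ribosyltransferase, stood at 1.6, 2.97 and 2.67 CPM in AFSC, 12, 7.82 and 6.31 in ALSC, and 4.12, 6.63 and 4.6 in ABSC. AFSC was lowest in every library. Parp14 rose in ALSC with a log2 fold change of 1.84 ± 0.31 (SE, adjusted p = 0.00837), a call kept in every leave-one-out fit, and its ABSC difference, a log2 fold change of 1.08 ± 0.32 (SE, adjusted p = 0.0705), did not pass without the block and passed with it (adjusted p = 0.0299). Parp9 stood at 14.3, 15.7 and 15.3 CPM in AFSC, 26.5, 28.4 and 32.9 in ALSC, and 15.6, 23.8 and 25.5 in ABSC. It rose in ALSC with a log2 fold change of 0.96 ± 0.17 (SE, adjusted p = 0.01), and the call was lost without AFSC 3 (adjusted p = 0.0533). Dtx3l, a ubiquitin ligase, stood at 22.4, 22.3 and 21.3 CPM in AFSC, 30.1, 33.9 and 31.8 in ALSC, and 20.6, 28.6 and 26 in ABSC. Its rise in ALSC had a log2 fold change of 0.54 ± 0.12 (SE, adjusted p = 0.026), and the call was lost without AFSC 1, AFSC 2, AFSC 3, ALSC 2 or ALSC 3 (adjusted p = 0.0656 to 0.122). Without the libraries numbered 1, Dtx3l was called higher in ABSC than in AFSC (adjusted p = 0.0037), where 14.5% of all genes tested rose. Parp9 and Dtx3l overlap on opposite strands, and reads there cannot be told apart. Both were called lower in ABSC than in ALSC with the block and not without it (adjusted p = 0.00569 and 0.00962), and Parp9 was then higher in ABSC than in AFSC (adjusted p = 0.00471). Ifi35 likewise passed with the block and not without it, higher in ALSC than in AFSC and lower in ABSC than in ALSC (adjusted p = 0.0406 and 0.0289).

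Of the 8 class I presentation genes, 5 rose and 0 fell in ALSC against AFSC, where 3.54% of all genes tested rose and 3.5% fell. In ABSC against AFSC 2 rose and 2 fell, where 3.98% and 4% of all genes did. Without the libraries numbered 1, Tap1 and Nlrc5 were called lower in ALSC than in AFSC (log2 fold changes of -0.37 and -0.72, adjusted p = 0.000507 and 0.00542), where 13.4% of all genes were. Psmb8, Psmb9 and Psmb10 encode the catalytic subunits of the immunoproteasome, which cuts peptides for class I. Psmb8 stood at 4.73, 6.37 and 6.57 CPM in AFSC, 19.9, 19.5 and 17.5 in ALSC, and 6.82, 21.8 and 19.6 in ABSC. ABSC 1 lay just above AFSC, while ABSC 2 and 3 lay with ALSC. Psmb8 rose in ALSC with a log2 fold change of 1.68 ± 0.35 (SE, adjusted p = 0.0207), a call lost with no filter on low counts, and it was lost without AFSC 1, AFSC 2, AFSC 3, ALSC 2 or ALSC 3 (adjusted p = 0.0516 to 0.0838). In ABSC it had a log2 fold change of 1.44 ± 0.35 (SE, adjusted p = 0.0333). The ABSC call was not kept with the block (adjusted p = 0.069), with no filter on low counts or with the libraries of these 2 groups only, and it was lost without ABSC 2, ABSC 3, AFSC 1, AFSC 2, AFSC 3, ALSC 2 or ALSC 3 (adjusted p = 0.0523 to 0.13). Psmb9 stood at 9.37, 9.06 and 8.82 CPM in AFSC, 18.2, 13.7 and 13.2 in ALSC, and 9.52, 8.2 and 7.93 in ABSC, with ALSC above both others. Against AFSC, it rose in ALSC with a log2 fold change of 0.73 ± 0.15 (SE, adjusted p = 0.0191), where the call was lost without AFSC 2 or AFSC 3 (adjusted p = 0.0858 to 0.0882), and was lower in ABSC than in ALSC with a log2 fold change of -0.81 ± 0.15 (SE, adjusted p = 0.00738), a call kept in every leave-one-out fit. Psmb10 stood at 36.8, 35.8 and 39.3 CPM in AFSC, 52.4, 57.7 and 61.1 in ALSC, and 37.9, 56.3 and 53.1 in ABSC. Its rise in ALSC had a log2 fold change of 0.61 ± 0.13 (SE, adjusted p = 0.0232), and the call was lost without AFSC 1, AFSC 2, AFSC 3, ALSC 2 or ALSC 3 (adjusted p = 0.0703 to 0.113). In ABSC it passed with the block and not without it (adjusted p = 0.0095).

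Tap1 and Tap2 form the peptide transporter, and Tapbp encodes tapasin, which loads peptides. Tap2 stood at 12.2, 12.2 and 12.6 CPM in AFSC, 25, 21.4 and 18.5 in ALSC, and 14.7, 15 and 13.7 in ABSC. The groups did not overlap. Tap2 rose in ALSC with a log2 fold change of 0.81 ± 0.12 (SE, adjusted p = 0.00446), a call kept in every leave-one-out fit and was lower in ABSC than in ALSC with a log2 fold change of -0.58 ± 0.12 (SE, adjusted p = 0.013), where the call was lost without ABSC 3 (adjusted p = 0.062). Tapbp stood at 17.3, 24.9 and 23.3 CPM in AFSC, 50.1, 50.4 and 52.6 in ALSC, and 28.2, 54.3 and 49.2 in ABSC. In ALSC it rose with a log2 fold change of 1.22 ± 0.22 (SE, adjusted p = 0.0105), a call kept in every leave-one-out fit, though not with no filter on low counts. In ABSC it rose with a log2 fold change of 1 ± 0.22 (SE, adjusted p = 0.0197). The ABSC call was lost with no filter on low counts and with the libraries of these 2 groups only, and it was lost without ABSC 2, ABSC 3, AFSC 1 or AFSC 3 (adjusted p = 0.0637 to 0.0815). Tapbp overlaps Zbtb22, which passed in no comparison. Tap1 passed in no comparison without the block and was lower in ABSC than in AFSC with it (adjusted p = 0.00478), while Psmb9, which overlaps it on the other strand, rose in ALSC.

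B2m, the light chain of class I, and Nlrc5, the transactivator of class I genes, were the 2 genes that fell in ABSC against AFSC. B2m stood at 18.9, 21.2 and 21.8 CPM in AFSC, 24.5, 18.7 and 18.5 in ALSC, and 14.4, 13.9 and 14 in ABSC. The 3 ABSC libraries lay close together and below every other library. B2m fell in ABSC with a log2 fold change of -0.55 ± 0.13 (SE, adjusted p = 0.0262), where the call was lost without ABSC 2, ABSC 3, AFSC 2 or AFSC 3 (adjusted p = 0.0922 to 0.113). It was also lower in ABSC than in ALSC with a log2 fold change of -0.54 ± 0.13 (SE, adjusted p = 0.0232), a call lost with the libraries of these 2 groups only, and it was lost without ABSC 2 or ABSC 3 (adjusted p = 0.0816 to 0.0897). Patl2, which overlaps B2m, was at most 0.988 CPM in the group means. Nlrc5 stood at 3.04, 5.38 and 5.07 CPM in AFSC, 4.45, 3.18 and 3.15 in ALSC, and 2.26, 1.88 and 1.92 in ABSC, again with all ABSC libraries lowest. It fell in ABSC with a log2 fold change of -1.15 ± 0.26 (SE, adjusted p = 0.0233), where the call was lost without ABSC 2, ABSC 3, AFSC 2 or AFSC 3 (adjusted p = 0.092 to 0.108), and with the block it was lower in ABSC than in ALSC too (adjusted p = 0.0252).

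**Figure D3:**
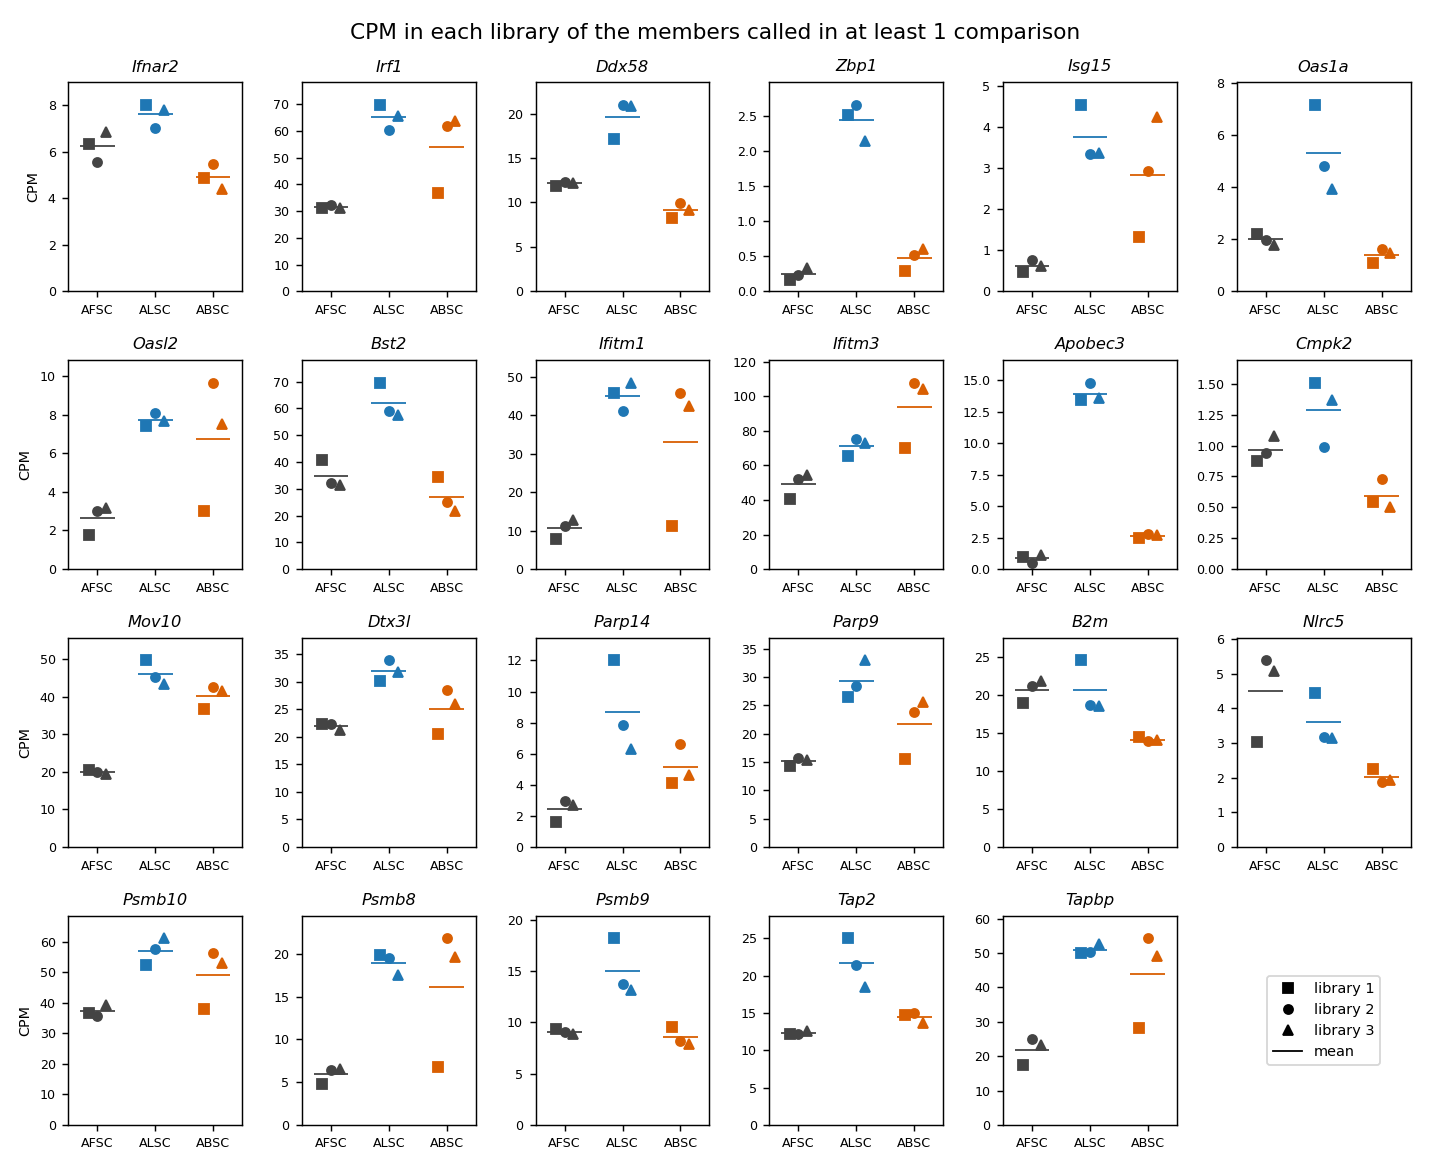
CPM of the 23 genes that passed in at least 1 comparison, by cell type on a linear axis from 0; squares, circles and triangles are libraries 1, 2 and 3 and lines are means. ABSC 1 (orange square) lies apart from ABSC 2 and 3 for Isg15, Oasl2, Ifitm1 and Psmb8, and ALSC (blue) is above both other groups for Zbp1, Bst2, Apobec3 and Psmb9.

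ABSC 1 stood apart within its group for part of the set. Of the 44 genes tested, 6 were lower in ABSC 1 than in the mean of ABSC 2 and 3 by more than 1 in log2(CPM + 0.5), namely Ifih1, Isg15, Isg20, Oasl2, Ifitm1 and Psmb8 (13.6%, against 1.37% of all genes tested). The differences were -1.92 for Ifitm1, -1.85 for Ifih1 and -1.53 for Psmb8. Apobec3 and Mov10 differed by only -0.14 and -0.19. The same measure passed this size downward for 1 gene in AFSC 1 (Isg20), where 0.686% of all genes tested did. It did so for 0 genes in ALSC 1, where 1.04% of all genes tested did. Upward it passed this size for Irf8 in ABSC 1 and for Irf8 and Oas3 in ALSC 1 (1.96% and 2.19% of all genes tested). In AFSC 1 it did so for 0 genes (0.655% of all genes tested). Without the libraries numbered 1, 16 genes rose and 6 fell in ABSC against AFSC, where 14.5% and 13.9% of all genes tested did. The 10 calls of the main fit in ABSC against AFSC were all kept. They included Irf1, Ifitm1 and Psmb8 (adjusted p = 9.09e-12, 3.79e-14 and 1.5e-11), whose calls the block did not keep. In ALSC against AFSC 24 rose and 2 fell (all genes 12% and 13.4%), and in ABSC against ALSC 1 rose and 16 fell (all genes 16.8% and 15.4%). Calls over all genes thus also grew in these fits, from 1291 to 4622, 1139 to 4122 and 1775 to 5225. What a number stands for is not given, and its part in these differences was not tested.

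**Figure D4:**
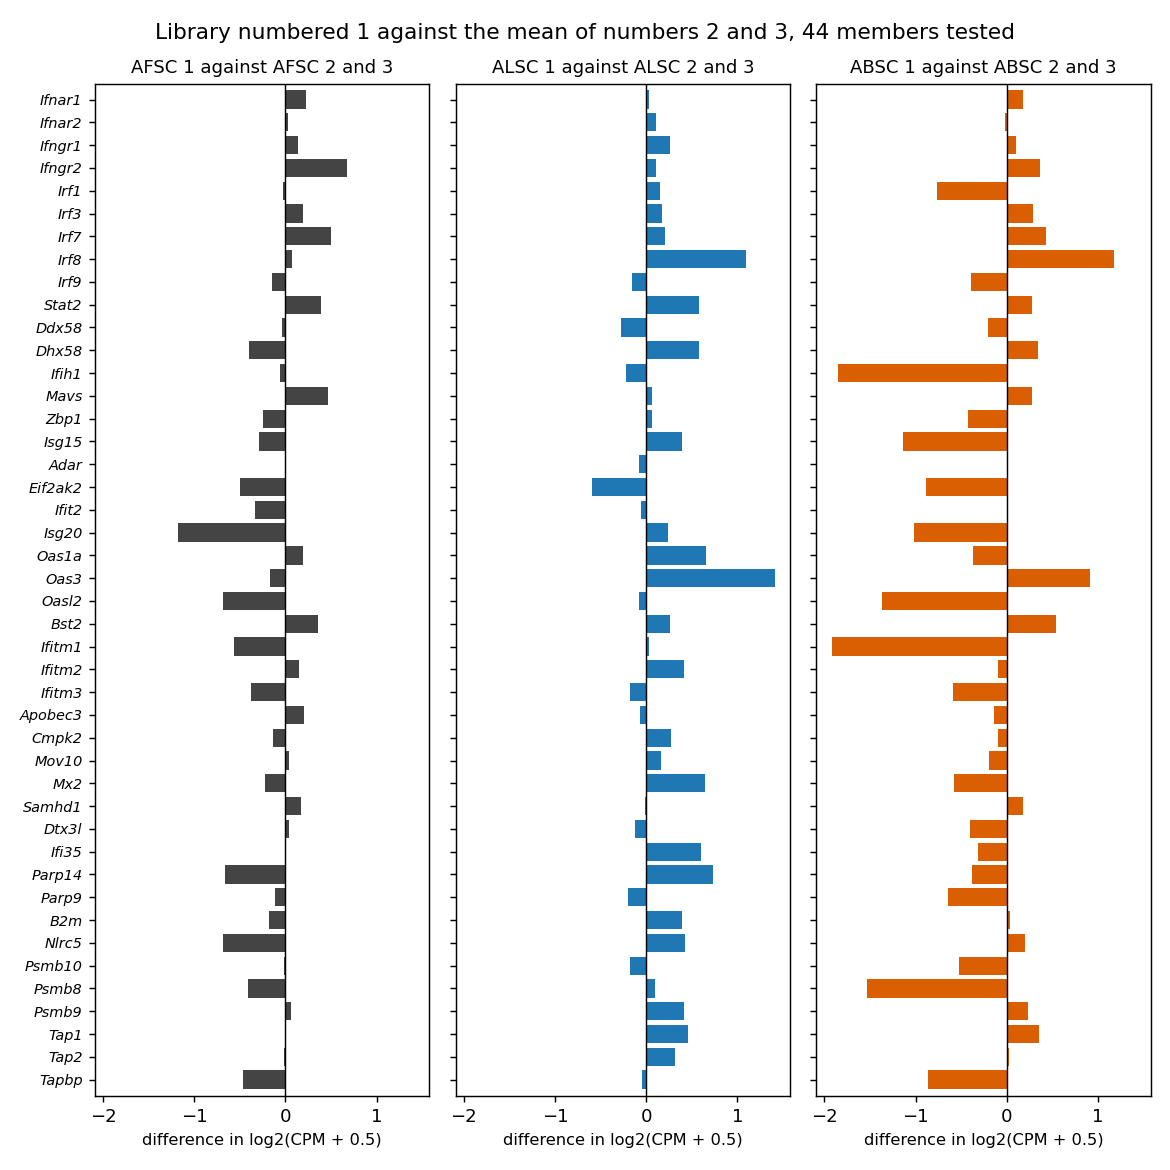
Difference in log2(CPM + 0.5) between the library numbered 1 and the mean of numbers 2 and 3 in each cell type, for the 44 genes tested. Bars for Ifitm1, Ifih1, Psmb8, Oasl2, Isg15 and Isg20 reach below -1 in ABSC, and in AFSC only Isg20 does.

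A list of 82 other pathway genes, 51 of them tested, was examined beside the set. These genes were chosen with earlier results of these data known, so they are no independent check of the set. Their median log2 fold changes were 0.6 in ALSC against AFSC, 0.12 in ABSC against AFSC and -0.3 in ABSC against ALSC. In ALSC against AFSC, 15 rose and 2 fell (all genes tested 3.54% and 3.5%), in ABSC against AFSC 7 rose and 1 fell (3.98% and 4%), and in ABSC against ALSC 3 rose and 13 fell (5.41% and 5.56%). With the block the counts were 21 and 5 (all genes 11.1% and 11.1%), 10 and 4 (9.58% and 9.78%), and 5 and 21 (14.2% and 14.3%). Among the signal transducers, Jak2 rose in ALSC with a log2 fold change of 0.65 ± 0.12 (SE, adjusted p = 0.0126), where the call was lost without AFSC 2 or AFSC 3 (adjusted p = 0.0555 to 0.0754), and with the block it was lower in ABSC than in ALSC (adjusted p = 0.0165). Jak1, a kinase of the type I receptor, stood at 35.8, 37.7 and 38.1 CPM in AFSC, 40, 31.4 and 29.9 in ALSC, and 40.9, 33.7 and 36.5 in ABSC, and it passed in no comparison. Tyk2, the other kinase of that receptor, stood at 22.2, 21.9 and 18.8 CPM in AFSC, 29.9, 23.3 and 25.1 in ALSC, and 22, 20.4 and 19 in ABSC. It did not pass without the block and passed with it (adjusted p = 0.02 in ALSC against AFSC and 0.00931 in ABSC against ALSC).

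Of the feedback inhibitors, Socs3 rose in ALSC and Socs1 in ABSC. Socs3, a target of LIF and STAT3 signalling, stood at 4.07, 3.21 and 3.52 CPM in AFSC, 63.2, 39.8 and 39.9 in ALSC, and 5.1, 6.06 and 5.76 in ABSC, so every ALSC library was far above all others. Socs3 rose in ALSC with a log2 fold change of 3.73 ± 0.21 (SE, adjusted p = 5.27e-05) and was lower in ABSC than in ALSC with a log2 fold change of -3.08 ± 0.2 (SE, adjusted p = 1.42e-05). Socs1, the inhibitor of JAK kinases downstream of interferon receptors, stood at 7.62, 4.29 and 5.11 CPM in AFSC, 8.53, 6.83 and 5.5 in ALSC, and 15.9, 22.6 and 19.8 in ABSC, with ABSC highest in every library. It rose in ABSC with a log2 fold change of 1.78 ± 0.24 (SE, adjusted p = 0.00152) and was higher in ABSC than in ALSC with a log2 fold change of 1.48 ± 0.24 (SE, adjusted p = 0.00342). All 4 of these SOCS calls held in every leave-one-out fit. Socs3 in ABSC against AFSC, with a log2 fold change of 0.65 ± 0.21 (SE, adjusted p = 0.0992), did not pass, and with the block it was called higher there (adjusted p = 0.0236). Ptpn2, a phosphatase that acts on JAK kinases, was higher in ABSC than in ALSC with a log2 fold change of 0.3 ± 0.072 (SE, adjusted p = 0.0251), where the call was lost without ABSC 2, ABSC 3, ALSC 1, ALSC 2 or ALSC 3 (adjusted p = 0.0501 to 0.101), and with the block it was higher in ABSC than in AFSC too (adjusted p = 0.00457).

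The class I heavy chain genes H2-K1 and H2-D1 rose in both derived cell types. H2-K1 stood at 75.4, 63.7 and 64.7 CPM in AFSC, 144, 118 and 113 in ALSC, and 110, 96.8 and 97.6 in ABSC, with no AFSC library as high as any other. H2-K1 rose in ALSC with a log2 fold change of 0.88 ± 0.1 (SE, adjusted p = 0.00145) and in ABSC with a log2 fold change of 0.58 ± 0.1 (SE, adjusted p = 0.00761). H2-D1 stood at 18.6, 15.8 and 14.5 CPM in AFSC, 42.1, 31.3 and 29.4 in ALSC, and 32.9, 29.1 and 29.6 in ABSC. Against AFSC, it rose in ALSC with a log2 fold change of 1.07 ± 0.15 (SE, adjusted p = 0.00306) and in ABSC with a log2 fold change of 0.91 ± 0.15 (SE, adjusted p = 0.00476). All 4 calls held in every leave-one-out fit, while B2m, the chain they pair with, was lower in ABSC. H2-K1 in ABSC against ALSC passed with the block and not without it (adjusted p = 0.000622). H2-M3 rose in ALSC with a log2 fold change of 1.49 ± 0.25 (SE, adjusted p = 0.00787), where the call was lost without AFSC 3 (adjusted p = 0.051). H2-Q7 was lower in ABSC than in ALSC with a log2 fold change of -1.43 ± 0.31 (SE, adjusted p = 0.0173), where the call was lost without ABSC 2 or ABSC 3 (adjusted p = 0.0721 to 0.0791), and with the block it was higher in ALSC than in AFSC (adjusted p = 0.00016). Tapbpl rose in ALSC with a log2 fold change of 0.96 ± 0.17 (SE, adjusted p = 0.0105), where the call was lost without AFSC 2 or AFSC 3 (adjusted p = 0.0622 to 0.0626). The calls of H2-M3 and Tapbpl in ABSC against ALSC (adjusted p = 0.0493 and 0.0469) were lost in every leave-one-out fit (adjusted p = 0.0578 to 0.15 and 0.0596 to 0.118). Class I genes are alike in sequence, and reads could be split between them.

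Of 33 further interferon-stimulated genes, 20 were tested. In ALSC against AFSC 6 rose and 1 fell (all genes 3.54% and 3.5%), in ABSC against AFSC 3 rose and 1 fell (3.98% and 4%), and in ABSC against ALSC 1 rose and 6 fell (5.41% and 5.56%). Pml, which encodes the organizer of nuclear PML bodies and is named here after its values were seen, was the gene that fell in ALSC. It stood at 70.1, 75 and 70.3 CPM in AFSC, 51.7, 57.9 and 55.3 in ALSC, and 106, 123 and 108 in ABSC, with no overlap between groups and ABSC highest. It had a log2 fold change of -0.39 ± 0.077 (SE, adjusted p = 0.0161) in ALSC against AFSC, where the call was lost without AFSC 2, AFSC 3 or ALSC 3. It was higher in ABSC than in AFSC with a log2 fold change of 0.65 ± 0.076 (SE, adjusted p = 0.000664) and than in ALSC with a log2 fold change of 1.04 ± 0.077 (SE, adjusted p = 3.12e-05), and both of these calls held in every leave-one-out fit. Ddx60, a helicase that assists RNA sensors, stood at 0, 0.142 and 0.141 CPM in AFSC, 3.21, 1.51 and 2.44 in ALSC, and 0.147, 1.2 and 0.96 in ABSC, above 1 CPM in every ALSC library and in ABSC 2. In ALSC it rose with a log2 fold change of 4.55 ± 0.79 (SE, adjusted p = 0.00877), a call kept in every leave-one-out fit, and with the block it was lower in ABSC than in ALSC (adjusted p = 0.0469). Parp12, an ADP-ribosyltransferase, stood at 0.36, 0.566 and 0.563 CPM in AFSC, 2.25, 3.18 and 2.7 in ALSC, and 1.28, 5.07 and 4.85 in ABSC. It rose in ABSC with a log2 fold change of 2.88 ± 0.5 (SE, adjusted p = 0.00645), a call kept in every leave-one-out fit, and in ALSC with a log2 fold change of 2.42 ± 0.51 (SE, adjusted p = 0.0204), where the call was lost without AFSC 1, AFSC 2, AFSC 3, ALSC 2 or ALSC 3 (adjusted p = 0.0556 to 0.085). Rtp4 stood at 0.0515, 0.0472 and 0.282 CPM in AFSC, 1.28, 1.04 and 0.865 in ALSC, and 0.0981, 0.261 and 0.253 in ABSC, so AFSC and ABSC were near 0. Rtp4 rose in ALSC with a log2 fold change of 2.99 ± 0.57 (SE, adjusted p = 0.013), where the call was lost without AFSC 2 (adjusted p = 0.0743), and was lower in ABSC than in ALSC with a log2 fold change of -2.36 ± 0.53 (SE, adjusted p = 0.019), where the call was lost without ABSC 2, ABSC 3 or ALSC 2 (adjusted p = 0.0517 to 0.0621). Gbp7, a guanylate-binding protein, rose in ALSC with a log2 fold change of 2.11 ± 0.45 (SE, adjusted p = 0.0217), where the call was lost without AFSC 2, AFSC 3 or ALSC 2 (adjusted p = 0.0786 to 0.111), and with the block it was lower in ABSC than in ALSC (adjusted p = 0.0284). Among the Toll-like receptor genes and their adaptors, Tlr3, a receptor of double-stranded RNA, was lower in ABSC than in ALSC with a log2 fold change of -1.14 ± 0.25 (SE, adjusted p = 0.0168), a call kept in every leave-one-out fit, and with the block it was higher in ALSC than in AFSC (adjusted p = 0.0107). Myd88, the adaptor of most other Toll-like receptors, rose in ALSC with a log2 fold change of 0.62 ± 0.16 (SE, adjusted p = 0.0429) and was lower in ABSC than in ALSC with a log2 fold change of -0.57 ± 0.16 (SE, adjusted p = 0.0436). For Myd88 in ALSC against AFSC the call was lost without ABSC 2, AFSC 1, AFSC 2, AFSC 3, ALSC 1, ALSC 2 or ALSC 3 (adjusted p = 0.0537 to 0.125), and in ABSC against ALSC the call was lost without ABSC 2, ABSC 3, AFSC 2, AFSC 3, ALSC 1, ALSC 2 or ALSC 3 (adjusted p = 0.0561 to 0.157).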

How the data were processed

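RNA-seq was analysed in 9 libraries, 3 each of AFSC, ALSC and ABSC, grouped by the labels' cell type. Libraries were poly-T selected and made with a NEBNext Ultra kit that does not mark the strand, per the labels' protocols. The authors deposited raw counts per gene. HISAT2 2.0.5 served for alignment and featureCounts 1.5.0-p3 for counting, per the submitters' processing notes, which list the build mm9. However, 98.33% of the shared Ensembl IDs have their GRCm38 coordinates (GENCODE M21). The table's gene lengths are as deposited by the authors. Rows without a gene name held 0.2075% to 0.2273% of the counts and were left out.

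Tests were run with edgeR 4.0.16 under R 4.3.3: filterByExpr (minimum count 10, minimum total 15), TMM factors (0.963 to 1.06), and 1 robust quasi-likelihood fit of all 9 libraries with 6 residual degrees of freedom and 2-sided F tests. P-values were adjusted over the 16178 genes tested. SE is the absolute log2 fold change over the square root of F. The 95% intervals are the SE times the t quantile at 6 degrees of freedom, on either side of the log2 fold change. They can be wider than the F test implies. For Zbp1 in ABSC against AFSC the interval ran from -0.06 to 1.97, where the F test gave an unadjusted p = 0.0443. The script was tested on simulated counts.

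The numbers 1 to 3 come from the labels, which give it no meaning such as a culture or a day. Deviations from group means correlated at 0.515 to 0.616 among libraries numbered 1, 0.249 to 0.358 among those numbered 2 and 0.289 to 0.432 among those numbered 3, and at -0.497 to 0.332 between different numbers. All same-number values were over 0.1, the bound set for taking the numbers as a pairing. However, deviations within a group cancel, and number 1 alone could give such values. The main fit holds no block, so its p-values ignore such a pairing, and the fit with the replicate block is given beside it.

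Values are given per library for 18 members and 7 pathway genes whatever their result, for every member that passed in a comparison and had 1 CPM or more in a group mean, and for up to 4 called pathway genes per list with the largest change, some of which are given by their test alone. The pathway gene counts include a gene under this rule that is not reported here by name. Tested genes overlapping a called member are named. Genes given only by group means or a block test were named after their values were seen. The members and all gene lists were chosen with earlier results of these data known. Alternatives were RLE factors, library size only, no filter, a mean of at least 1 CPM, DESeq2 1.42.0, the replicate block, the libraries of 2 groups only, leaving out the libraries numbered 1, and leaving out each library in turn.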

Additional observations from a re-analysis of the deposited data

How the results depend on the processing

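Scaling by RLE factors or library size alone, a mean of at least 1 CPM and DESeq2 kept every count of called members within 1.5 times, and no called result changed sign under any alternative; 51 values called in neither fit did. With the replicate block, members called numbered 16 in ABSC against AFSC and 19 in ABSC against ALSC, against 10 and 10, and all genes called 3132, 3590 (ALSC against AFSC), 4605 and, for any difference, 5992. Block values that changed a named call stand beside it in the report, and the block changed no other call of a member in the 3 pairwise comparisons. Without the 3 libraries numbered 1, members called numbered 22, 26 and 17 in ABSC against AFSC, ALSC against AFSC and ABSC against ALSC, and all genes called 4622, 4122 and 5225, with 7121 for any difference. With only the libraries of the 2 groups, 6 members were called in ABSC against AFSC, against 10 in the main fit. All genes called there were 1250, against 1291. In ALSC against AFSC, 20 members were called against 18, and 1022 of all genes against 1139. In ABSC against ALSC, 7 members were called against 10, and 1041 of all genes against 1775. Over the 9 leave-one-out fits, where a lone pair of libraries borrows the spread of the other groups, members called ranged from 3 to 17, 8 to 20 and 6 to 11 in the same order and 14 to 22 for any difference. All genes called ranged from 667 to 1723, 345 to 1522, 846 to 2337 and 1395 to 3048. The causes of these moves were not tested. Depth limits the 10 genes left untested, which stayed at or under 1.38 CPM in every library. For single genes, 912 values of called results kept their call and 172 lost it, and 107 of uncalled results gained one.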
